A study of Ovis aries with 60 samples.

Results

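RNA of the sperm axoneme was examined in semen of F2 rams through a list of 50 genes that encode axonemal dyneins, radial spokes, the nexin-dynein regulatory complex, the central apparatus and proteins of the doublet microtubules, among them the cilia and flagella associated proteins (CFAP). Of the 50 genes, 48 had a row among the 28525 genes of the count table, and CFAP47 and SPEF2 are not analysed here. A further 6 (DNALI1, RSPH4A, RSPH9, RSPH14, GAS8 and TEKT4) were too low for the tests, which left 42 of the 13577 genes that reached 15 counts in over 10 rams. Semen was collected by electroejaculation from 20 individually sequenced rams of the Polypay breed, washed, treated with a lysis buffer for somatic cells and extracted as total RNA. In the methionine line, 10 rams were grandsons of F0 rams whose control diet carried an encapsulated methionine supplement from weaning until puberty. In the control line, 10 rams were grandsons of F0 rams that had the control diet alone. The F0 rams came from twin pairs split between the diets, but the labels do not pair the sires used. The F1 and F2 generations of both lines had the control diet, and untreated ewes were used throughout. Each line descended from 5 F0 sires, with 2 F2 rams per F0 sire that share an F1 sire, so the rams of a line are not unrelated, and no age is given for the rams at collection. Rams are named by their sample titles, whose numbers label the figures.

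The axoneme is the motor of the sperm tail and of motile cilia, a ring of doublet microtubules around a central pair. Outer and inner dynein arms walk along the neighbouring doublet, radial spokes pass signals from the central apparatus to the arms, and the nexin-dynein regulatory complex links the doublets so that sliding becomes bending. In the testis these genes are transcribed in spermatocytes and round spermatids, and transcription has ceased by the time the sperm are released, so RNA of ejaculated sperm is a remnant of that stage. DNAH8 and DNAH17 are the outer arm heavy chains of the sperm tail, whereas DNAH5, DNAH9 and DNAH11 are known from the cilia of epithelia.

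The libraries held between 805831 and 13137757 counts, with a median of 3436936, and the levels of their cell type markers varied widely. A spermatid index, the mean log2 CPM (counts scaled to library size by the trimmed mean of M-values, TMM) of 27 spermatid and sperm genes that include none of the axonemal list, ran from 2.48 in control ram SpermRNA468C to 6.55 in control ram SpermRNA485C. Despite the lysis step, the summed CPM of 19 leukocyte markers ran from 144.9 to 58290. The neutrophil gene S100A9 ran from 32.7 to 37900 CPM and the protamine gene PRM1 from 34.8 to 1530 CPM. The sum of 19 squamous epithelium markers ran from 206.7 to 35800 CPM. Among them KRT4 had the highest mean (4140 CPM), while the keratins KRT5, KRT6A, KRT10 and KRT1 had means of 3.27, 3.55, 3.77 and 5.14 CPM. Over the 20 rams the spermatid index was correlated with the leukocyte index (r = -0.68, rho = -0.58, permutation p = 0.00076 and 0.00918, adjusted over 3 relations 0.00114 and 0.0138) and with the squamous index (r = -0.81, rho = -0.78, p = 1e-05, the smallest possible, and 0.00015, adjusted 3e-05 and 0.00045). It was also lower in libraries with more counts in genes, which are not all reads sequenced (r = -0.47 with log2 total counts, rho = -0.50, permutation p = 0.0365 and 0.0259, adjusted 0.0365 and 0.0259). Without rams SpermRNA485C and SpermRNA382T, the farthest from the median, these r were -0.48, -0.69 and -0.41. None of the 3 indices passed a test between the diet lines (differences of 0.10, 0.05 and 0.23, two-sided permutation p = 0.869, 0.947 and 0.634, adjusted 0.947 for each). Measures of leukocyte level differed in sign between the lines, since the index was 0.05 higher in the methionine line, whereas the fitted log2 fold changes of all 19 markers were negative (median -0.64, 0 called) and their summed CPM was 12600 ± 8430 in the methionine and 18600 ± 18900 in the control line (SD, n = 10), with medians of 13300 and 11100. The summed CPM of 8 markers of multiciliated epithelium, whose cilia hold the same structures, ran from 16.99 to 154.4. Of these FOXJ1, the master factor of motile cilia, lay between 0.636 and 9.46 CPM, MCIDAS was at 0 in 1 ram and SNTN in 2, and CDC20B reached 115 CPM. The sum was highest in rams SpermRNA382T and SpermRNA485C, with CDC20B at a mean of 35.4 of the mean sum of 65.7 CPM and a slope of 1.04 ± 0.09 on the spermatid index. Of the other 3 markers tested CCNO was called (0.40 ± 0.16, edgeR adjusted p = 0.0308), and GMNC (0.21 ± 0.12) and MYB (0.22 ± 0.13) were not. The part of the sum in the axonemal levels was not tested. In such samples fewer cells of a type and less RNA per cell cannot be told apart.

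All 48 measured axonemal genes had counts in most rams. Together they received between 1228 and 17240 counts per ram. Mean CPM ran from 2.84 for the spoke head gene RSPH9 to 114 for the inner arm heavy chain DNAH10. CPM is not per length of transcript, so these means do not compare abundance between genes. The genes with the highest mean CPM after DNAH10 were DNAH12 (87.2 CPM), an inner arm heavy chain, and CFAP221 (82.2 CPM) of the central apparatus. DNAH17 (75.5 CPM) and HYDIN (62.0 CPM), a giant protein of the central apparatus, followed. The lowest mean CPM beside RSPH9 belonged to TEKT4, a tektin that runs inside the doublets, at 2.96 CPM. GAS8 of the nexin-dynein regulatory complex and the radial spoke gene RSPH4A followed at 4.12 CPM. RSPH14, a radial spoke protein, was the 1 gene with a count of 0, in rams SpermRNA372T and SpermRNA449C, and reached 23.9 CPM in ram SpermRNA485C.

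The spread between rams was far wider than these means convey. CFAP221 had 5.93 CPM in ram SpermRNA468C, a median of 27.9 CPM and 607 CPM in ram SpermRNA485C, a range of 102-fold. DNAI2, an intermediate chain of the outer arm, ran from 2.52 CPM in ram SpermRNA372T over a median of 14.8 CPM to 143 CPM in ram SpermRNA382T, which have the same sire. DNAH3 and DNAH7, both inner arm heavy chains, had the narrowest ranges among the heavy chains, 5.53-fold and 5.01-fold.

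**Figure D1:**
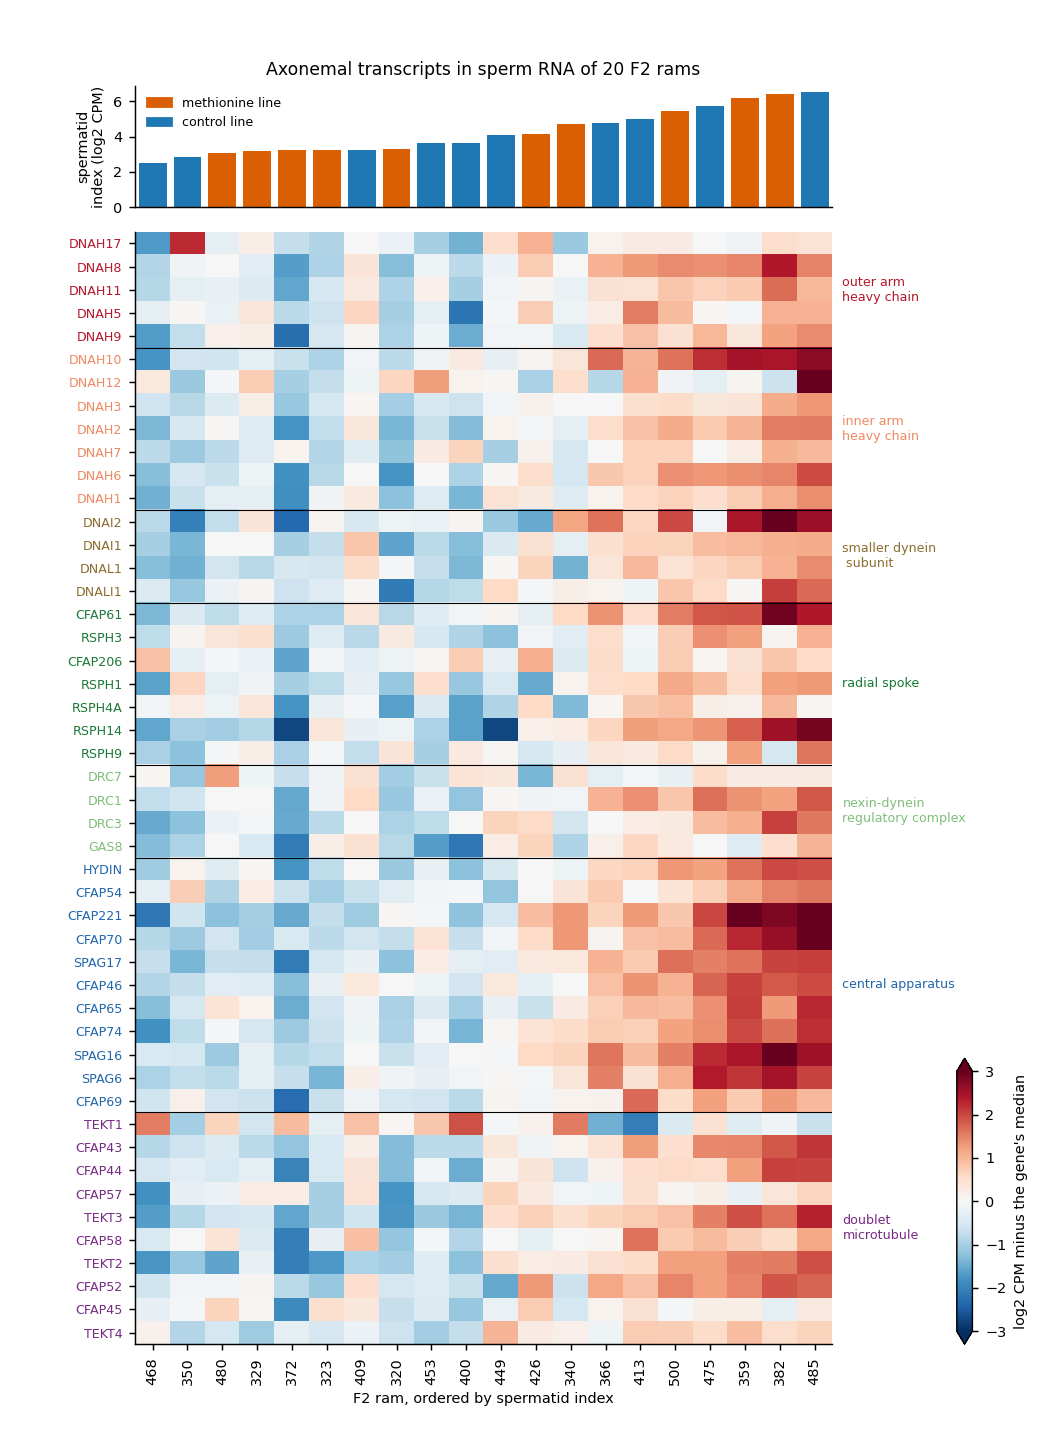
Level of the 48 measured axonemal genes (rows, by role) in 20 F2 rams (columns), as log2 CPM minus the gene's median, with rams ordered by the spermatid index drawn as bars above and coloured by diet line. Most rows turn from blue to red towards rams SpermRNA359T, SpermRNA382T and SpermRNA485C, whose index lies at 6.20, 6.42 and 6.55, while DNAH17 peaks in ram SpermRNA350C, DNAH12 in ram SpermRNA485C and TEKT1 in ram SpermRNA400C.

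The first comparison asks whether the diet of the F0 grandsire left a difference in these transcripts. No axonemal gene passed the test of diet line. With edgeR's quasi-likelihood test, 0 of 42 genes passed an adjusted p of 0.05, as did 0% of the 13577 genes tested. At an unadjusted p under 0.05 there was 1 axonemal gene, beside 104 genes in all (0.766%). DESeq2 and limma-voom, the latter with the correlation of rams of 1 sire, called 0 axonemal genes and 0 of all genes tested as well. Neither had an axonemal gene at an unadjusted p under 0.05, where 174 (DESeq2) and 85 (limma-voom) of all genes lay. Log2 fold changes, methionine minus control line, were positive for 12 and negative for 30 of the 42, with a median of -0.08, where 5812 of all genes tested were positive and 7765 negative, with a median of -0.05. The median of the 42 moved to 0.15 without ram SpermRNA485C and to -0.30 without ram SpermRNA382T.

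The gene with the smallest p was DNAH12. In the methionine line it ran from 19.7 to 68.5 CPM with a median of 38.1 CPM, and in the control line from 18.1 to 924 CPM with a median of 41.9 CPM. The log2 fold change was -1.76 ± 0.65 (SE, n = 10 and 10; unadjusted p = 0.0121, edgeR adjusted p = 1). A single library set this value, because ram SpermRNA485C held 3900 DNAH12 counts and the next highest ram, SpermRNA453C of the same line, had 95.8 CPM. Without ram SpermRNA485C the log2 fold change was -0.24, and with all rams DESeq2 gave -0.26. CFAP58, a coiled-coil protein of the sperm tail, had the next smallest p at -0.52 ± 0.38 (unadjusted p = 0.182). DNAI2 had the largest positive value, 0.72 ± 0.64 (unadjusted p = 0.27), with 38.5 ± 44.9 CPM in the methionine line and 23.2 ± 26.8 CPM in the control line (SD, n = 10). Its log2 fold change was 0.21 without ram SpermRNA382T and 1.29 without ram SpermRNA485C.

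The intervals show how much these rams could resolve when counted as unrelated animals. The shared sires and the twin pairs of the F0 rams do not enter them. For CFAP57, with one of the narrowest, the 95% interval of the log2 fold change was -0.83 to 0.49, and for CFAP221 it was -1.998 to 1.229. For the sperm heavy chain DNAH8 it was -0.88 to 1.14 and for DNAH17 it was -1.31 to 0.57, so a level 2-fold higher in the methionine line lies inside the first interval and one 2-fold lower inside the second.

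**Figure D2:**
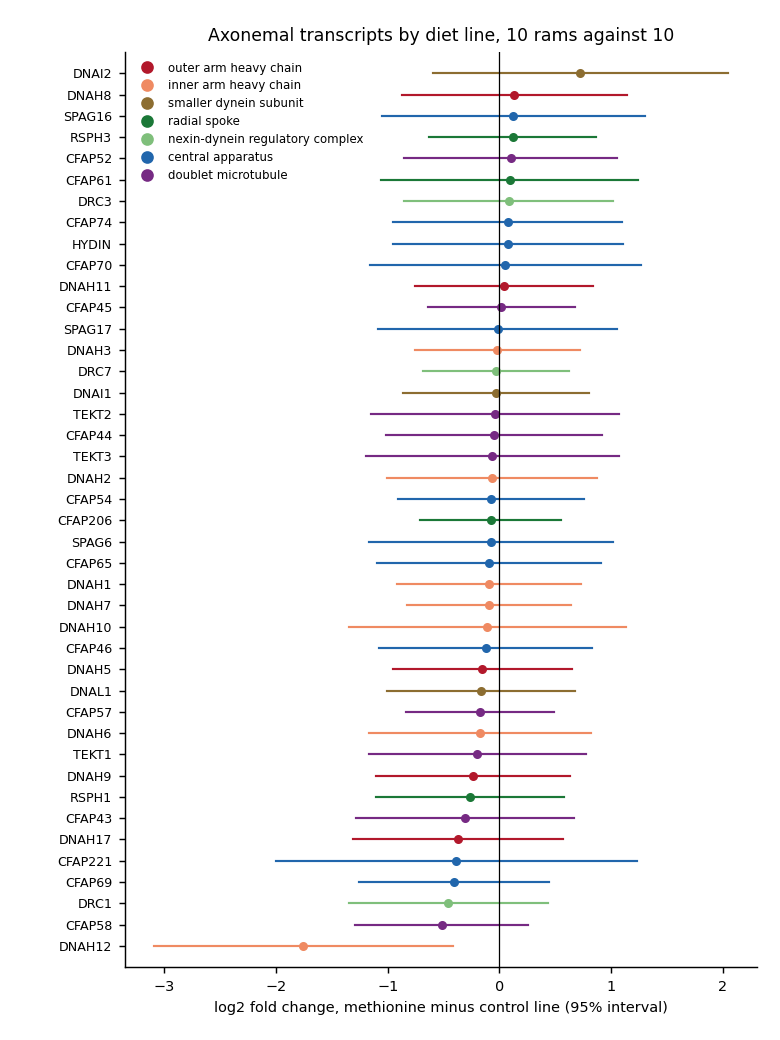
Log2 fold change of the 42 tested axonemal genes, methionine minus control line (10 rams each), with points for the edgeR estimate, lines for its 95% interval and colours for the role. Every interval includes 0 except that of DNAH12 (-3.10 to -0.42), which rests on ram SpermRNA485C.

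The second comparison asks how the transcripts follow the make-up of the library. Most axonemal genes were higher where the spermatid markers were higher. The axonemal and marker lists were chosen with earlier results of these data known, so the counts that follow are no independent comparison. In a model with diet line, 36 of the 42 had a positive slope on the spermatid index at an edgeR adjusted p of 0.05 and 0 a negative one, where 27.5% of all genes tested were higher and 35.8% lower. The median slope was 0.64 log2 units of CPM per unit of index, against -0.05 over all genes tested and 1.201 over the 22 spermatid markers tested, which themselves make the index. Scaled to total counts in place of TMM, the slope of all genes moved from a median of -0.05 to 0.32 and that of the axonemal genes to 0.82, with 41 of 42 higher, while the split over all genes went from 3735 higher and 4864 lower to 7875 higher and 1352 lower. The index and the genes share each library's scaling. The 36 called higher became 16 with the leukocyte and squamous indices in the model, where 1040 of all genes were higher. They became 19 with counts summed per sire family (1361 of all genes) and 18 without the 5 rams of the highest index (1184 of all genes).

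Genes of the central apparatus had the highest median slope of the 7 roles, an order that was not tested. All 11 were called higher, with slopes from 0.45 to 1.32 and a median of 0.84, and 9 of 11 with counts summed per sire family or with the other 2 indices in the model. CFAP221 had 5.93 CPM at the lowest index (ram SpermRNA468C) and 114, 262, 199 and 607 CPM in rams SpermRNA475C, SpermRNA359T, SpermRNA382T and SpermRNA485C of the highest, a slope of 1.32 ± 0.12 (SE; adjusted p = 2.22e-09). SPAG16, a scaffold of the central apparatus needed for sperm motility, went from 6.78 CPM in ram SpermRNA468C to 58.0 CPM in ram SpermRNA485C with 82.4 CPM in ram SpermRNA382T, a slope of 1.00 ± 0.08. CFAP70 went from 12.1 to 187 CPM between the same rams SpermRNA468C and SpermRNA485C, a slope of 0.98 ± 0.09. HYDIN had 0.711 ± 0.105 (from 20.3 to 167 CPM). CFAP54, at 0.45 ± 0.10, had the shallowest slope of the group.

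Among the inner arm heavy chains all 7 were called higher. Since the 2 rams of a sire are related, counts were also summed per sire family, and then DNAH6 and DNAH10 alone were called (adjusted p = 0.0415 and 0.00987), as they alone were with the other 2 indices in the model (0.003 and 0.000835). DNAH10, a heavy chain of inner arm f, had 15.9 CPM in ram SpermRNA468C, and 258, 317, 303 and 365 CPM in rams SpermRNA475C, SpermRNA359T, SpermRNA382T and SpermRNA485C. Its slope was 1.00 ± 0.10 (adjusted p = 1.1e-08), and no ram with a lower index than ram SpermRNA340T (4.74) exceeded the 72.0 CPM of that ram. DNAH6 (0.76 ± 0.10) and DNAH2 (0.63 ± 0.11) followed, and DNAH1, DNAH3 and DNAH7 lay at 0.52, 0.43 and 0.40. DNAH12 was called at 0.62 ± 0.20 (adjusted p = 0.00867), but without ram SpermRNA485C its slope was -0.04.

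Of the outer arm heavy chains, 4 of 5 were called higher. With the other 2 indices in the model 0 of 5 were called (DNAH8 at 0.72, adjusted p = 0.0594), and with counts summed per sire family only DNAH8 was (0.68, adjusted p = 0.0409). DNAH8 had 12.3 CPM in ram SpermRNA468C, a median of 22.9 CPM and its highest level, 124 CPM, in ram SpermRNA382T, with a slope of 0.74 ± 0.11 (adjusted p = 5.92e-06). The other sperm form, DNAH17, had the lowest slope of the 5, -0.01 ± 0.17, and was not called. The forms known from epithelial cilia had smaller estimates than DNAH8 and larger ones than DNAH17. DNAH9 had 0.53 ± 0.12, DNAH11 0.51 ± 0.09 and DNAH5 0.34 ± 0.13 (adjusted p = 0.0249), the last no longer called without ram SpermRNA485C, without ram SpermRNA382T, with no filter on low counts (0.22, adjusted p = 0.205) or with the index as a summed CPM (0.23, adjusted p = 0.0665). The 95% intervals of DNAH8 (0.51 to 0.96) and DNAH11 (0.32 to 0.70) overlapped, and the difference between slopes was not tested. The smaller dynein subunits tested, DNAI2, DNAL1 and DNAI1, were all called higher at 0.97, 0.54 and 0.53, and at 0.86, 0.48 and 0.64 with the other indices in the model, where 0 of 3 were called. With family sums only DNAI2 was called.

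The other groups were split. Of 4 radial spoke genes tested, 3 were called higher, led by CFAP61, a protein of the spoke base, at 0.95 ± 0.09 (5.93 CPM in ram SpermRNA468C and 121 CPM in ram SpermRNA382T), and followed by RSPH1 and RSPH3 at 0.53 and 0.40. DRC3 and DRC1 of the nexin-dynein regulatory complex had 0.69 and 0.65. Of 9 doublet genes tested, 6 were called higher, with TEKT3 (0.97 ± 0.10) and TEKT2 (0.96 ± 0.10) at the top. With the other 2 indices in the model 1 of 4 radial spoke genes (CFAP61), 1 of 3 genes of the regulatory complex (DRC1) and 3 of 9 doublet genes were called, and with family sums 1 (CFAP61), 0 and 5. Slopes of genes that lost the call with the other indices were not all smaller, as RSPH1 went from 0.53 to 0.60, RSPH3 from 0.40 to 0.57 and CFAP52 from 0.66 to 0.67, while DRC3 went from 0.69 to 0.55.

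**Figure D3:**
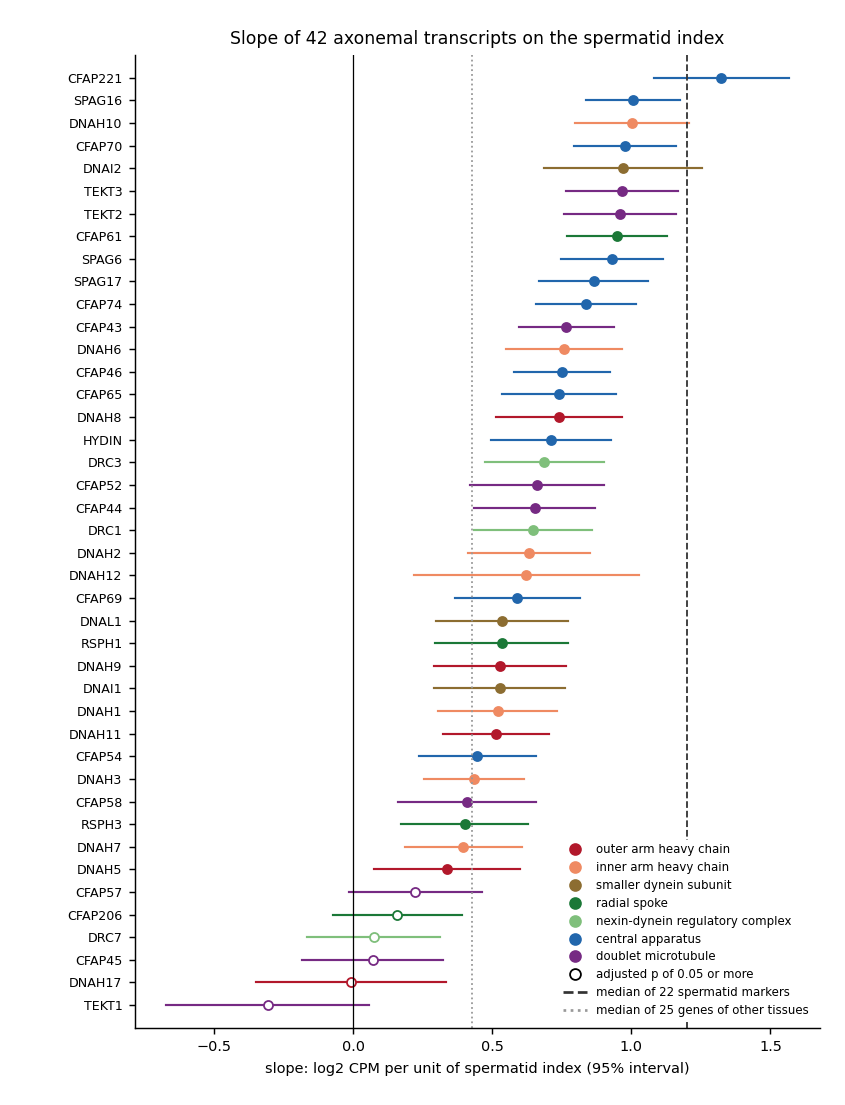
Slope of the 42 tested axonemal genes on the spermatid index (log2 CPM per unit of index), with points for the edgeR estimate, lines for its 95% interval, colours for the role and open points for an adjusted p of 0.05 or more. CFAP221 at 1.32 lies above the median of the spermatid markers (1.201, dashed) and 10 genes lie at or below the median of genes of other tissues (0.43, dotted).

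Positive slopes were also found among genes not known from the sperm tail. A list of 26 genes known from muscle, neurons, retina and inner ear, liver and cartilage was drawn up after their values had been seen, so its counts are a description and no independent comparison. It gave 18 of 25 tested genes higher and 1 lower, with a median slope of 0.43 and a highest slope of 0.85. The giant muscle proteins NEB and TTN, with the highest means of the list (368 and 364 CPM), had slopes of 0.10 ± 0.16 (adjusted p = 0.595) and 0.81 ± 0.13, and the neuronal gene RELN had 0.62 ± 0.11. Of the 42 axonemal genes, 10 exceeded the highest of these slopes, 10 lay at or below their median, and 1, CFAP221, reached the median of the spermatid markers. The part that signal shared with unrelated genes plays in the axonemal slopes was not tested.

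The 6 genes without a called slope were DNAH17, TEKT1, DRC7, CFAP45, CFAP206 and CFAP57. DNAH17, although a sperm heavy chain, had 19.9 CPM in ram SpermRNA468C, 88.3 CPM in ram SpermRNA485C, and its 2 highest levels in rams SpermRNA350C (314 CPM) and SpermRNA426T (135 CPM). These were the 2 rams with the highest leukocyte index, 9.46 and 7.55, but ram SpermRNA329T, at 7.51, had 74.9 CPM. By summed CPM of the leukocyte markers ram SpermRNA468C, with the lowest DNAH17 level, was highest (58290), and ram SpermRNA350C followed (37750). The slope of DNAH17 on the spermatid index was -0.01 ± 0.17 (95% interval -0.35 to 0.33), and 0.26 without ram SpermRNA350C. On the current sheep assembly, ARS-UI_Ramb_v3.0, which is not the build of the counts, DNAH17 overlaps PGS1, an enzyme of phospholipid synthesis, and their log2 levels had r = 0.40 over the 20 rams, where PGS1 had r = -0.70 with the spermatid index. The strand used in counting is not given in the sources used here, so reads of overlapping genes may not be told apart.

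TEKT1, a tektin of the doublets, was the only one of the 42 with a negative median correlation to the other axonemal genes (r = -0.45). It was highest in rams SpermRNA400C (172 CPM), SpermRNA340T (133 CPM) and SpermRNA468C (132 CPM) and lowest in ram SpermRNA413C (10.2 CPM). Its slope on the spermatid index was -0.31 ± 0.18 (adjusted p = 0.132). The nearest tested gene before it on ARS-UI_Ramb_v3.0 is GGT6, whose log2 level had r = 0.81 with that of TEKT1 and r = -0.68 with the spermatid index. Whether the TEKT1 counts include transcripts that begin in GGT6 was not tested.

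The other 4 had mean levels from 4.62 CPM (CFAP45) to 12.5 CPM (CFAP57). Their ranges between rams, from 6.36-fold (CFAP57) to 9.64-fold (CFAP45), were narrower than those of CFAP221 or DNAH10 (102-fold and 23-fold). A narrow range was not particular to them, as DNAH7 and DNAH3, both called higher, had 5.01-fold and 5.53-fold. DRC7 had its highest level, 27.3 CPM, in ram SpermRNA480T with an index of 3.09 and a slope of 0.07 ± 0.12. CFAP45 stayed between 0.839 and 8.09 CPM (slope 0.07 ± 0.12) and overlaps TAGLN2, at a mean of 103 CPM, with r = -0.30 between them. CFAP206 lay between 1.47 and 12.1 CPM (slope 0.16 ± 0.11), and CFAP57 between 3.18 and 20.2 CPM (slope 0.22 ± 0.12, adjusted p = 0.0905). The upper bounds of their 95% intervals, from 0.31 to 0.46, do not reach the slope of CFAP61 or DNAH10.

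**Figure D4:**
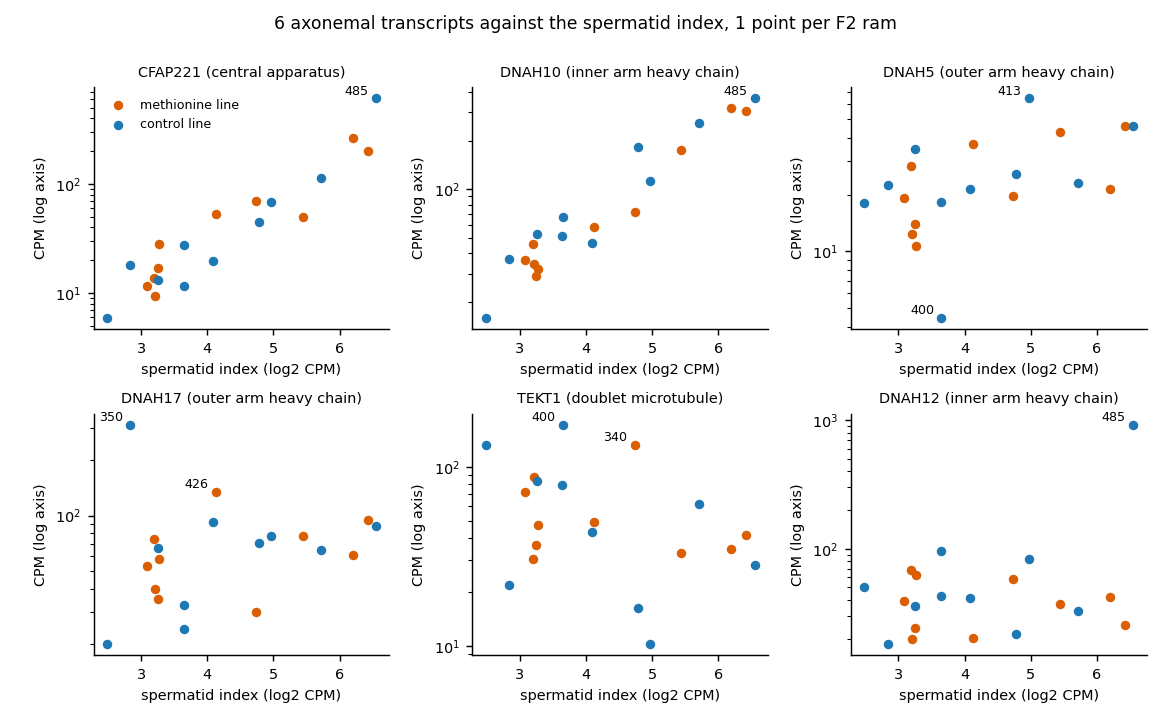
Level (CPM, log axis) of CFAP221, DNAH10, DNAH5, DNAH17, TEKT1 and DNAH12 against the spermatid index, 1 point per F2 ram, coloured by diet line. CFAP221 and DNAH10 climb with the index, DNAH5 scatters between 4.44 and 64.6 CPM, DNAH17 stands at 314 CPM in ram SpermRNA350C, TEKT1 at 172 CPM in ram SpermRNA400C and DNAH12 at 924 CPM in ram SpermRNA485C alone.

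Levels were also set against the markers of other cells. On the leukocyte index 28 of the 42 axonemal genes were lower and 0 higher, where 15.7% of all genes tested were lower and 11% higher. The count of 28 depended on single rams, with 10 without ram SpermRNA485C and 14 without ram SpermRNA382T, where the genes lower among all 13577 went from 2127 to 1079 and 1466. DNAH17 had a positive estimate, 0.19 ± 0.10 (adjusted p = 0.168), and 0.01 without ram SpermRNA350C. With counts summed per sire family 0 were lower, where 28 of all genes tested were lower and 290 higher, and the median slope of the 42 turned from -0.32 to 0.27 (0.05 over all genes tested). The squamous index was not particular to squamous cells. Tested markers of simple epithelium had a median slope of 1.847 on it, against 1.548 for the tested squamous markers. On the squamous index 35 axonemal genes were lower and 0 higher, where 25.2% of all genes tested were lower and 27.8% higher, and TEKT1 had an estimate of 0.48 ± 0.21 (adjusted p = 0.0627). With family sums 5 were lower on it, where 666 of all genes tested were lower and 651 higher, with a median slope of -0.56 against -0.68. With all 3 indices in the model, 16 of 42 were higher and 0 lower on the spermatid index, where 1040 of all 13577 genes were higher and 90 lower. On the leukocyte index 0 were then lower and 1, DNAH17, was higher (0.44, adjusted p = 0.0175), where 951 of all genes were higher and 248 lower. This fit was not repeated without ram SpermRNA350C. On the squamous index 0 were higher or lower, where 324 of all genes were higher and 53 lower.

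No axonemal gene passed the test of sire family. Across the F0 sires within lines, 0 of 42 genes passed an adjusted p of 0.05 with edgeR and 0 had an unadjusted p under 0.05, where 0% of all genes tested passed and 184 (1.36%) had an unadjusted p under 0.05. The smallest p belonged to TEKT1 (0.0582). Rams of 1 sire could stand far apart. In 7 of 10 families the ram with the higher spermatid index had the higher mean log2 level of the 48 genes. These were the 5 families whose index differed by over 1 and sires 4 and 12, while for sires 11, 24 and 23, with index differences of 0.61, 0.39 and 0.06, the ram with the higher index had the lower mean level (differences of -0.14, -0.75 and -0.36). Of the sons of the F1 ram from control sire 6, ram SpermRNA350C had 857.6 CPM summed over the 48 genes and ram SpermRNA485C had 4082 CPM. For methionine sire 9, rams SpermRNA372T and SpermRNA382T had 445.0 and 2720 CPM, the lowest sum of the 20 rams and the second highest.

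The third comparison concerns how the genes vary together. Over the 20 rams, 36 of 42 axonemal genes correlated positively with the spermatid index (permutation test with 100000 resamples, adjusted over all genes), where 27.5% of all genes tested did. The median r was 0.81, against -0.06 over all genes tested. DNAH10 had r = 0.96 and rho = 0.92 (permutation p = 1e-05 for both, the smallest possible, adjusted p = 8.52e-05 and 0.000169) and r = 0.95 without rams SpermRNA485C and SpermRNA382T. DNAH12 had r = 0.34, rho = 0.16 (permutation p = 0.145 and 0.505, adjusted 0.192 and 0.572) and r = 0.07 without those rams. CFAP57 was counted among the 36 here (r = 0.50, rho = 0.46, permutation p = 0.0236 and 0.0401, adjusted 0.0409 and 0.0672), and DNAH12 was not. Without rams SpermRNA485C and SpermRNA382T, 34 of 42 remained, where 17.3% of all genes did.

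Pairs of axonemal genes were described by r without a test, since all pairs share the same libraries and total counts. Of 861 pairs, 616 (71.5%) had r of at least 0.5, against 18.9% of all gene pairs, and the median was 0.72 against -0.01. The tightest pairs were DNAH10 with CFAP61 (r = 0.97) and DNAH8 with DNAH11 (r = 0.97). The lowest were DNAH17 with TEKT1 (r = -0.67) and DNAH5 with TEKT1 (r = -0.62). A high r was not particular to the pair of DNAH8 and DNAH11. DNAH8 had the highest median r with the other axonemal genes (0.88), and DNAH11 had 0.84. Both had their highest level in ram SpermRNA382T.

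Once the spermatid index and diet line were removed, the pairs kept a median r of 0.26, with 221 (25.7%) at 0.5 or more, against 10.7% of all gene pairs. Each gene was then set beside the 25 genes of other tissues. These genes, which were chosen after their values were seen, had a median r among themselves of 0.79 before and 0.72 after removal. The same is not given for the spermatid markers, because the index removed is their own mean. Before removal, 29 of the 42 axonemal genes had the higher median r with the spermatid markers and 13 with the genes of other tissues, a tally with no share over all genes beside it. The share over all genes was likewise not computed for the counts after removal. For 21 of the 42 the median r with the genes of other tissues was still at least 0.5 after removal. DNAH1 (0.79), DNAH9 (0.78), DNAH2 (0.77), DNAH11 (0.73), DNAH5 (0.71) and DNAH8 (0.65) were among them. For 12 it was under 0.2, among them CFAP221 (0.18), SPAG16 (0.13), DNAH10 (0.03), CFAP70 (-0.02) and SPAG6 (-0.02). DNAH10 at first had a median r of 0.91 with the spermatid markers and of 0.62 with the genes of other tissues, whereas DNAH9 had 0.67 and 0.86. Within a role the values ranged widely, among inner arm heavy chains from -0.22 (DNAH7) to 0.79 (DNAH1) and in the central apparatus from -0.02 (CFAP70) to 0.69 (HYDIN).

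**Figure D5:**
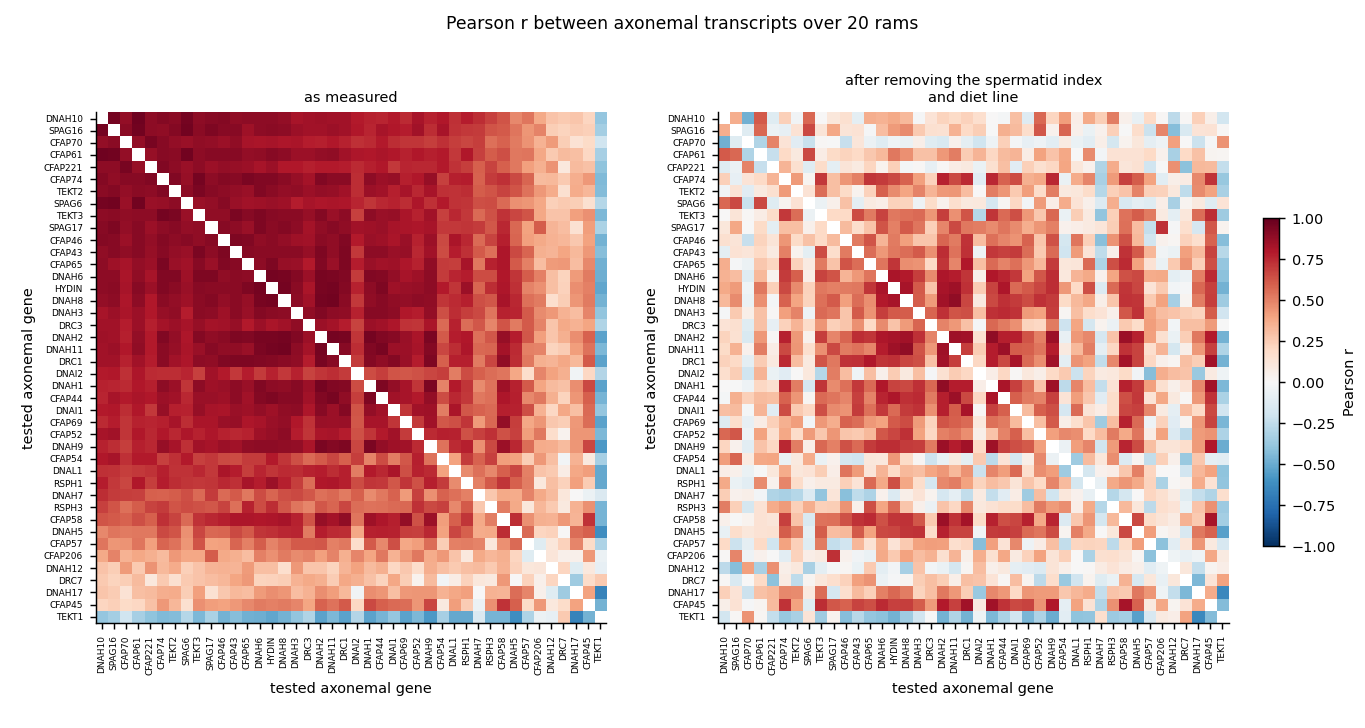
Pearson r between the 42 tested axonemal genes over 20 rams, as measured (left) and after the spermatid index and diet line were removed (right), with genes in the order of their r with the index. On the left 616 of 861 pairs reach 0.5 and TEKT1 is negative with most genes, and on the right 221 pairs reach 0.5 and the rows of DNAH10, CFAP70 and SPAG6 are pale.

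Some genes share their locus with another gene. On ARS-UI_Ramb_v3.0 DRC1 overlaps OTOF, the hair cell gene otoferlin and 1 of the genes of other tissues, and their log2 levels had r = 0.90. CFAP44 overlaps BOC in the same way (r = 0.84). The median r of DRC1 and CFAP44 with the 25 genes of other tissues was of like size, 0.82 and 0.84. Among the 42 genes, 6 overlapped another tested gene on that assembly. The others were DNAH17 with PGS1 (r = 0.40), CFAP45 with TAGLN2 (r = -0.30), RSPH1 with SLC37A1 (r = -0.03) and SPAG17 with WDR3 (r = -0.55). The part of shared reads was not tested.

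Genes that build or transport the axoneme, taken from lists of their own, were counted in the same way. These lists were not counted under the alternative settings. Over all genes tested, 27.5% were higher on the spermatid index and 35.8% lower. Of 14 tested genes for dynein assembly and docking, 12 were higher and 0 lower, with a median slope of 0.62. DNAAF1, an assembly factor, had 1.16 ± 0.09 and ARMC4, part of the outer arm docking complex, 1.09 ± 0.09, while SPAG1, with the highest mean of the list at 98.3 CPM, had -0.37 ± 0.21 (adjusted p = 0.124). Of 40 further axonemal genes 17 were tested, of which 13 were higher and 0 lower, with a median slope of 0.36. DNAH14 had 0.95 ± 0.09 and SPATA17 1.18 ± 0.10. Of 22 intraflagellar transport genes, 13 were higher and 1 lower, with a median slope of 0.44. KIF17, a kinesin motor, had 1.30 ± 0.11 at a mean of 225 CPM, and IFT122, a subunit of the retrograde complex, had -0.69 ± 0.20. Of 8 tested transcription factors (genes of the RFX family, CREM and SOX30), RFX3 (0.88), RFX4 (0.78), SOX30 (0.64) and RFX7 (0.33) were higher. CREM (-0.53) and RFX1 (-0.45) were lower, and RFX2 (0.19, edgeR adjusted p = 0.352) and RFX5 (0.06, edgeR adjusted p = 0.63) were not called. The median slope of the 8 was 0.26.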

How the data were processed

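RNA of 20 F2 semen samples was read as 100 bp single-end reads. Per the study's methods, Trimmomatic cleaned the reads and STAR aligned them to Oar_rambouillet_v1.0 and counted them per gene. The deposited values are raw counts, not normalized. The counting strand and molecular identifiers are not given in the sources used here. The bisulfite tables were not used and the planned test of methylation was not run, because no gene positions on their build were at hand.

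Counts were scaled by TMM in edgeR 4.0.16 (R 4.3.3) and tested by its quasi-likelihood test, with Benjamini-Hochberg adjustment over all 13577 genes passing the filter (15 counts, over 10 rams) and a threshold of 0.05. Log2 CPM used a prior count of 2. Slopes were fitted on marker indices with diet line in the model, and sire families as terms nested in diet line. Correlations used two-sided permutation tests with 100000 resamples (NumPy 2.4.6). Alternatives used DESeq2 1.42.0, limma 3.58.1 and other scalings, filters, indices and samples. The tests were tried on simulated counts.

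The genes and lists were chosen with earlier results of these data known. Named were the highest and lowest genes by mean CPM, the steepest slopes, the outer arm heavy chains, the extreme pairs, the top gene of each role, the smallest diet p and the 2 highest genes of other lists, and further names were added after their values were seen. Each sample is 1 ram. Lengths on the build of the counts were not at hand, so CPM is not per length and abundance is not compared between genes.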

Additional observations from a re-analysis of the deposited data

Results flagged for a closer look

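Within each diet line (10 rams) the highest and the lowest ram of 48 genes, 3 indices and the mean axonemal level were checked for a gap to the next ram, as a share of the line's range of log2 CPM, above Dixon's critical value for 95%. Of 104 groups 3 (2.88%) exceeded it, where chance gives about 1 in 20. All 3 lay in the control line. DNAH12 was far higher in ram SpermRNA485C (924 CPM from 3900 counts), with a gap of 0.579 of the range. CFAP57 was far lower in ram SpermRNA468C (3.18 CPM from 15 counts), with a gap of 0.532. DNAH5 was far lower in ram SpermRNA400C (4.44 CPM from 22 counts), with a gap of 0.512.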

How the results depend on the processing

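The count of axonemal genes that differed by diet line was 0 under every alternative run, also with the replicate block, in which consecutive F0 sire numbers were taken as twin pairs, a pairing that the labels do not state (0 genes, DNAH12 at -0.961), and without any single ram. The 36 genes higher on the spermatid index (median slope of the 42 tested 0.64, 3735 of all genes higher) became 16 with the other 2 indices in the model (0.646, 1040 of all genes), 19 with counts summed per F0 sire family (0.55, 1361), and 18 without the 5 rams of the highest index (0.669, 1184), an alternative chosen after seeing the data, as was scaling to total counts. The leukocyte index gave 28 lower and 0 higher genes, which became 0 lower and 1 higher with the other indices (all genes 248 and 951), 0 lower with family sums (28), 1 higher with the index as a summed CPM (4923), and 10 to 31 lower without single rams. The squamous index gave 35 lower and 0 higher, which became 0 lower with the other indices (all genes 53), 5 lower with family sums (666), 1 higher with no filter (5146), 1 higher with a summed index (4515), and 0 to 1 higher without single rams. Slopes on the spermatid index changed sign for DNAH17 (-0.007) to 0.005 with RLE size factors, 0.121 with the other indices, 0.462 with family sums, 0.362 with total counts, and between -0.064 and 0.261 without single rams. They did so for DNAH12 (-0.622 with the other indices, and -0.038 to 0.723 without single rams), DRC7 (-0.128, family sums), CFAP45 (-0.027 with no filter and -0.058 with family sums) and TEKT1 (0.075, total counts). Slopes on the leukocyte index changed sign for DNAH17 (-0.027) and TEKT1 (0.219) with a summed index, and for CFAP221 to 0.008 with the other indices and 0.984 with family sums. The cause was not tested, though family sums leave 10 samples. With total counts from 805831 upwards, genes of a few CPM rest on few reads. The test of methylation and its 4 alternatives were not run.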
